A study of Mus musculus with 42 samples.

Results

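Gene expression was compared between day 25 and day 16 of mouse D3 embryonic stem cells, a blastocyst-derived line, under directed differentiation into osteoblasts, which build bone. The samples were chosen by their titles, which give the day and VD3, the vitamin D3 label. There were 3 RNA samples on day 25 and 3 on day 16, and each was measured on both chips of the Affymetrix mouse set, MOE430A and MOE430B (430A and 430B for short), so 12 of the 42 arrays of the whole course belong to the comparison. Both days share the cell line and the listed supplements, vitamin D3, beta-glycerophosphate and ascorbic acid, and differ in the time in culture. The labels describe the cells as a clone, give the contaminating cell types as undetermined and do not say whether replicates were separate cultures, so the spread behind the p-values may be technical. No undirected culture is analysed here, and a difference between the days cannot be assigned to the supplements.

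Osteoblasts secrete a matrix of type I collagen and load it with mineral, and vitamin D, ascorbic acid and beta-glycerophosphate are the usual additions that drive this in culture. Differentiating embryonic stem cells give mixed cultures, in which mesenchyme, heart and smooth muscle, endoderm and epithelium can form next to one another. The leading genes of this comparison include products of stomach and squamous epithelium. Gastrokines, encoded by Gkn1 and Gkn2, are small proteins secreted by the surface mucous cells of the stomach, and small proline-rich proteins such as that of Sprr1a are cross-linked into the envelope of squamous epithelial cells.

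The starts of Gkn1 and Gkn2 lie 22450 bases apart on chromosome 6, on opposite strands. Their promoter windows, and that of Sprr1a, are shown because Gkn2 and Gkn1 had the largest rises among the named genes and Sprr1a was the 1 call in the squamous list. Each window runs from 250 bases before to 50 bases after the start, is taken from RefSeq (GRCm38.p6) and is written along the gene's strand. Capitals mark matches on either strand to 5 motifs. The TATA box was searched as TATAAA. The motif of GATA factors was AGATAA. For AP-1 it was TGANTCA. For the E-box it was CACCTG, and the CArG box, the site of serum response factor, has none in these windows. No 2 matches shown overlap.
Gkn1, chr6:87350866-87351165, minus strand: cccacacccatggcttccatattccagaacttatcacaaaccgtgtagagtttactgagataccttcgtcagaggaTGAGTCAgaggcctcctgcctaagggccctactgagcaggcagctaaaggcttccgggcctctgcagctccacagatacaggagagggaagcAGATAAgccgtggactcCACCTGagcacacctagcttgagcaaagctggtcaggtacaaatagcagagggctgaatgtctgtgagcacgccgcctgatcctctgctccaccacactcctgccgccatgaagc
Gkn2, chr6:87373115-87373414, plus strand: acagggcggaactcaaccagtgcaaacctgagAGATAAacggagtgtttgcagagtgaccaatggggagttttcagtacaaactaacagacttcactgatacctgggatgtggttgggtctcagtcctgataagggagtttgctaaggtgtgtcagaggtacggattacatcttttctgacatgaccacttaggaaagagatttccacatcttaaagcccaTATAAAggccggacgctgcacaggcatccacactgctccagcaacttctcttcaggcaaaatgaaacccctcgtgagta
Sprr1a, chr3:92485832-92486131, minus strand: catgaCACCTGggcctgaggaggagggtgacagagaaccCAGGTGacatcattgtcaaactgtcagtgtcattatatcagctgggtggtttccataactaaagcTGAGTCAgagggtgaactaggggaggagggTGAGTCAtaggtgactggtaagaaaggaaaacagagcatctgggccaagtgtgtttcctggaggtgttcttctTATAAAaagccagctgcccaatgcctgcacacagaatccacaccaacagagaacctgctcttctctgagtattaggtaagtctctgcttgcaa
Both gastrokine windows hold the GATA motif, at bases -82 to -77 in Gkn1 and at -218 to -213 in Gkn2, counted from the start. Sprr1a has 2 AP-1 matches, at -146 to -140 and at -116 to -110, and Gkn1 has 1, at -174 to -168. Of all 32851 windows, 11.2% hold the GATA motif, 7.81% the AP-1 motif, 13.6% the TATA box, 20.2% the E-box and 1.63% the CArG box. A match is a description of the letters and not a site of binding.

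Of the probe sets, 34925 passed the filter on low signal and were tested. A ratio of 3′ to 5′ signal in a control transcript is higher where RNA or its copies are shorter. On the log2 scale the Gapdh ratio was 4.13, 3.99 and 3.42 on day 25 and 2.37, 2.63 and 2.65 on day 16 on 430A. The days did not overlap (3.84 ± 0.38 on day 25 and 2.55 ± 0.15 on day 16, SD, n = 3 each; exact two-sided permutation p = 0.1, the smallest that 3 against 3 allow). On 430B the ratio was 3.85 ± 0.37 on day 25 and 2.93 ± 0.18 on day 16, and the actin ratio on 430A was 2.63 ± 0.14 on day 25 and 2.19 ± 0.18 on day 16 (SD, n = 3 each; exact permutation p = 0.1 for both). The ratios of the transferrin receptor and pyruvate carboxylase controls overlapped between the days on both chips. On 430A the transferrin receptor ratio was 3.70, 1.15 and 1.78 on day 25 and 0.66, 0.63 and 1.35 on day 16. That of pyruvate carboxylase was 1.72, 1.13 and 1.19 on day 25 and 1.43, 1.15 and 1.81 on day 16. On 430B the highest transferrin receptor ratio of these days was that of day 16 replicate 3 (3.40). Day 16 was scanned in 1 batch on each chip and day 25 in other batches, so day and scan batch cannot be told apart. Day 25 replicate 1 stood apart on 430A. It correlated with the other day 25 arrays at 0.858 and 0.868 and with the day 16 arrays at 0.861 to 0.875, while day 25 replicates 2 and 3 correlated at 0.907 and the day 16 arrays with one another at 0.908 to 0.935.

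**Figure D1:**
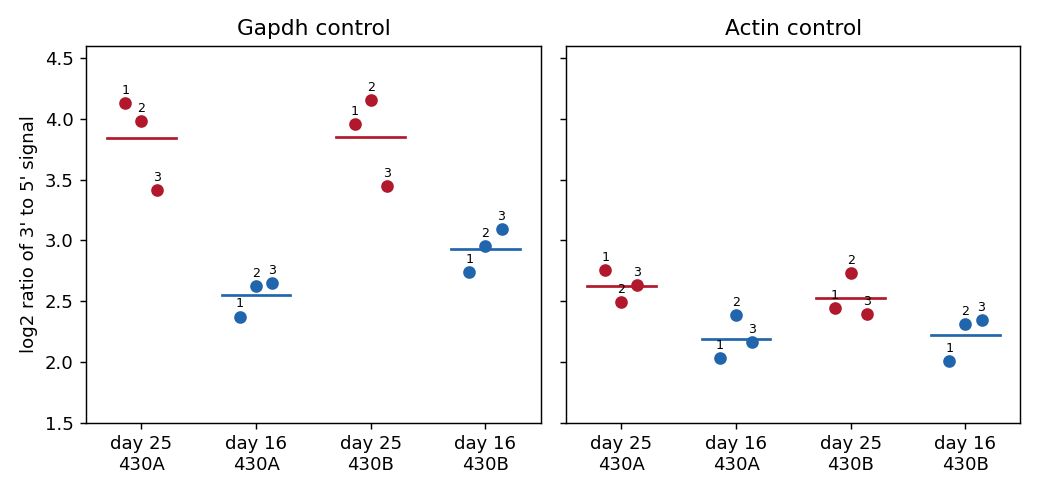
The log2 ratio of 3′ to 5′ signal of the Gapdh and actin controls for each array (points numbered by replicate, lines are means of 3) on both chips. On both chips each Gapdh ratio of day 25 lies above each of day 16.

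Between day 25 and day 16, 121 probe sets passed an adjusted p of 0.05 (0.346% of those tested), 51 higher and 70 lower on day 25. Most were on 430A, with 48 higher and 58 lower, while 430B gave 3 higher and 12 lower. A change of at least 2-fold was seen for 113 of the 121. At an unadjusted p under 0.05, 13.8% of the 430A and 8.85% of the 430B probe sets passed. With each array centred on its median, 31 were called higher and 72 lower, which moves the share of higher calls to 30.1%, against 42.1% as deposited. With the Gapdh ratio as a covariate 1 call was left, a probe set of Rab6a, a GTPase of Golgi traffic that was chosen here after its values were seen (3.34-fold higher, adjusted p = 0.0213 without the covariate and 0.00334 with it). The brighter probe set of Rab6a on 430A differed by 0.23 (adjusted p = 0.675, no covariate). The ratio changes with day, so this fit cannot separate RNA shortening from day, and none of the 31 called genes named below passed in it (adjusted p 0.157 to 0.732). Their differences kept their sign in 31 of 31 and were between 0.703 (Mtm1) and 1.39 (Gkn1) times those without the covariate.

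Counted by gene, with 1 probe set each, 26 of 15592 genes were higher on day 25 (0.167%) and 34 lower (0.218%). Of these 60 genes 33 had another tested probe set, which was called the same way for 5 and the opposite way for 0. Single samples sat unevenly. Among the 26 genes that rose, day 25 replicate 1 was the lowest of its day in 17 and day 16 replicate 3 the highest of its day in 13. Among the 34 that fell, day 25 replicate 1 was the highest of its day in 17. Without day 25 replicate 1, 318 probe sets were called, 119 higher and 199 lower, and these included 44 of the 51 and 58 of the 70 first called. Leaving out any other sample gave between 22 and 68 calls. It was 22 without day 16 replicate 1 and also without day 16 replicate 2, 26 without day 25 replicate 2, 63 without day 25 replicate 3 and 68 without day 16 replicate 3.

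**Figure D2:**
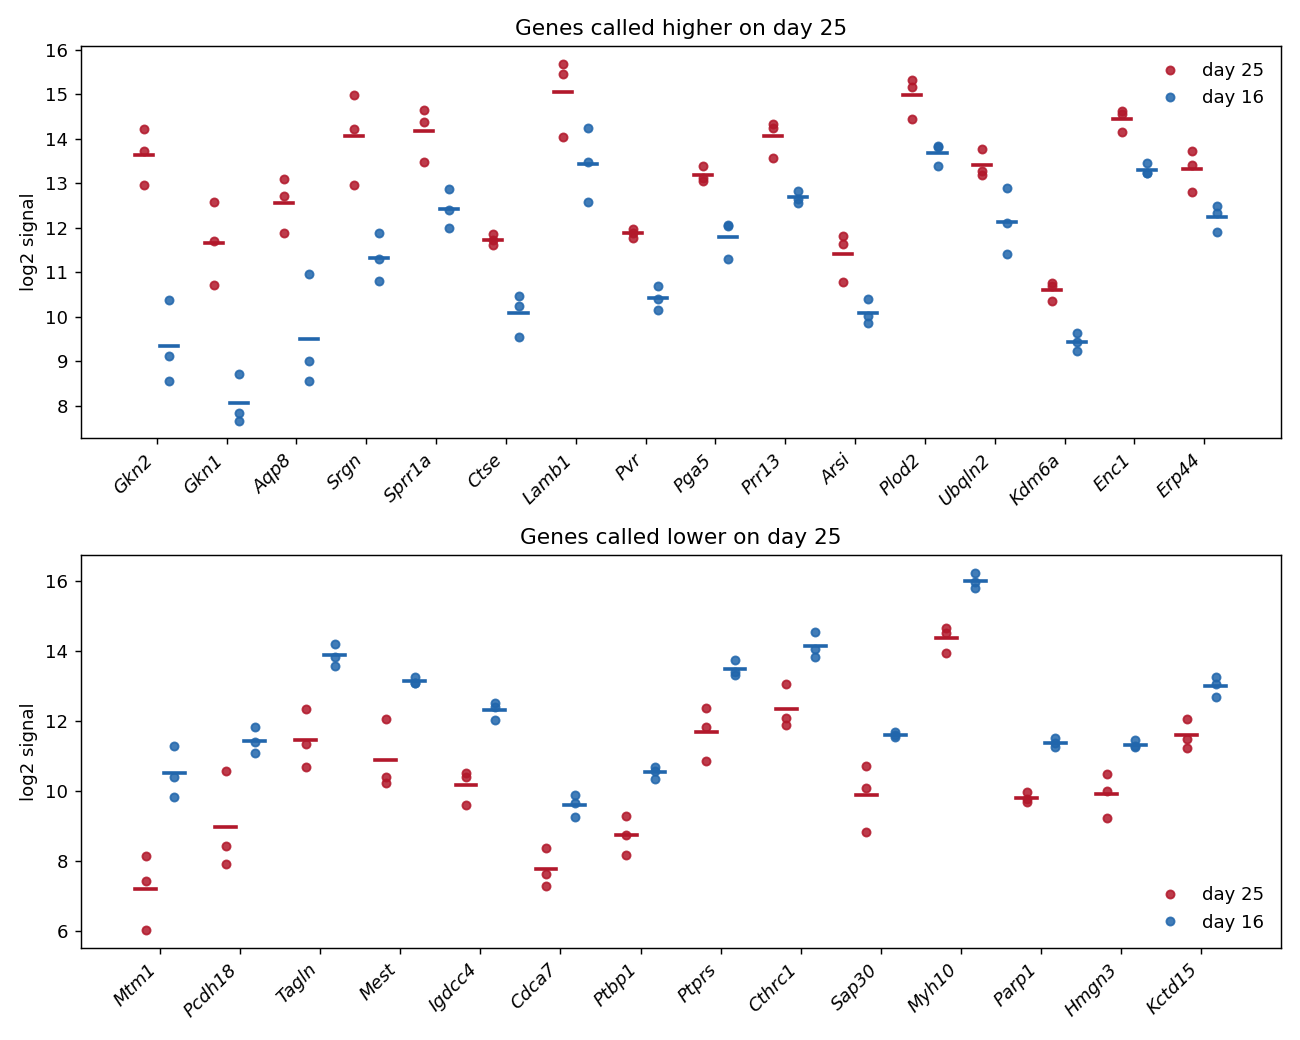
Log2 signal of the named genes with the largest rises (top) and falls (bottom), with the 3 arrays of day 25 left of the 3 of day 16 for each gene and the mean as a bar. Lamb1 is the 1 gene shown in which the days overlap, with day 25 replicate 1 at 14.03 and day 16 replicate 3 at 14.24.

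Gkn2 and Gkn1 had the largest rises among the named genes. Gkn2 had a log2 signal of 12.96, 13.73 and 14.21 on day 25 and of 8.56, 9.12 and 10.37 on day 16. Every day 25 sample was far above every day 16 sample, and Gkn2 was 19.5-fold higher (4.28, SE 0.66 on the log2 scale, adjusted p = 0.00298). Gkn1 had 10.70, 11.69 and 12.58 on day 25 and 7.67, 7.83 and 8.71 on day 16, 12.0-fold higher (3.59, SE 0.72, adjusted p = 0.024). Its other probe set showed the same order, with 11.85, 12.19 and 13.58 on day 25 and 4.58, 6.73 and 8.75 on day 16, at least 31.7-fold higher (adjusted p = 0.00243), and it was called whichever of the 6 samples was left out. The words "at least" stand for a bound from below, used where a value of the lower day was under the chip's 20th percentile (log2 6.96 on 430A and 7.67 on 430B) and was raised to it. Whether more cells of a type or more RNA per cell lies behind such a difference cannot be told apart in bulk samples.

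Ctse, Pga5 and Aqp8 were called higher too. Ctse, the aspartic protease cathepsin E of gastric surface cells, had 11.61, 11.73 and 11.86 on day 25 and 10.48, 9.55 and 10.25 on day 16 (3.12-fold, 1.64, SE 0.25, adjusted p = 0.00298). Pga5, a pepsinogen, was at 13.11, 13.40 and 13.05 on day 25 and at 11.29, 12.04 and 12.06 on day 16 (2.62-fold, adjusted p = 0.0387). Aqp8, a water channel of gut, liver and pancreas, reached 11.88, 13.09 and 12.71 on day 25, against 8.55, 8.995 and 10.95 on day 16 (8.36-fold, 3.06, SE 0.43, adjusted p = 0.00226). For Gkn2 and Aqp8 day 16 replicate 3 stood above the other day 16 samples, while Ctse had its highest day 16 value in replicate 1. Gkn2, Aqp8 and Ctse were called whichever of the 6 samples was left out (highest adjusted p 0.0359, 0.0215 and 0.0267). The call for this Gkn1 probe set was lost without day 16 replicate 1 or 2 or day 25 replicate 2 or 3 (highest adjusted p 0.119), and that for Pga5 without any 1 sample other than day 25 replicate 1 (up to 0.207).

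Of the 36 gastric and gut genes listed, 34 were on the chips and 22 tested, of which 3 rose (Gkn2, Gkn1 and Ctse), 0 fell and 19 did not pass. Over all genes 0.167% were called higher and 0.218% lower. The median difference was 0.57, against 0.00 over all genes, and 6 of the 22 had all 3 day 25 values above all 3 day 16 values, where 9.19% of all genes did, and 2 had all 3 below, where 10.1% did. Summed over the 22 genes, the linear signal was 44986 to 64525 on day 25 and 27279 to 34662 on day 16. Gkn2, named for its large rise, was the brightest and is part of these sums, so they do not show a rise of the other members. Defining genes of the gastric and intestinal lining, among them Muc5ac, Tff2, Pgc and Cdx1, were too dim to be tested. The list of yolk sac, liver and plasma protein genes had a median of 0.42 (0.20 without day 16 replicate 1 and 0.65 without day 16 replicate 2), 9 of 44 wholly above and 2 wholly below, and 0 called. Their summed signal was 143413 to 152323 on day 25 and 58522 to 123459 on day 16. Sox17, the endoderm factor with one of the smallest p-values there, had 13.09, 14.26 and 14.39 on day 25 and 9.60, 11.66 and 13.14 on day 16, so that the days overlapped (2.45, SE 0.73, adjusted p = 0.126). Gata4, a GATA factor of heart and endoderm, had 11.22, 11.83 and 11.24 on day 25 and 9.74, 9.74 and 10.28 on day 16, without overlap (1.51, SE 0.38, adjusted p = 0.0744). The part of these cells in the gastric signal was not tested.

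Squamous genes were represented by Sprr1a, with 14.37, 13.48 and 14.64 on day 25 and 12.87, 12.39 and 12.00 on day 16 (3.34-fold, 1.74, SE 0.33, adjusted p = 0.0194). All 3 day 25 samples were higher, and the call was lost without day 16 replicate 2 or 3 or day 25 replicate 3 (up to 0.0751). It was the 1 call among 36 tested genes of stratified epithelium, where 0.167% of all genes were called higher. The median of the list was 0.03. Of the 36 genes, 5 were wholly above and 1 wholly below, against 9.19% and 10.1% of all genes. Summed signal of that list overlapped between the days, at 78922 to 172527 on day 25 and 57314 to 151565 on day 16. Simple epithelium genes, the keratins and junction proteins of single-layered linings, gave 0 calls among 34, with a median of -0.21.

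Srgn, Lamb1, Plod2 and Erp44 were called higher. Srgn encodes serglycin, the core protein of the proteoglycans packed into secretory granules, and had 12.96, 14.99 and 14.22 on day 25 and 10.79, 11.29 and 11.88 on day 16. The lowest day 25 value was above the highest day 16 value, and the gene was 6.67-fold higher (2.74, SE 0.43, adjusted p = 0.00345, and at most 0.0395 with any 1 sample left out). Lamb1, the laminin beta chain of early basement membranes, had 14.03, 15.68 and 15.45 on day 25 and 12.57, 13.47 and 14.24 on day 16 (3.10-fold, adjusted p = 0.0478). Of its 3 other tested probe sets 1 was called, with 11.72, 12.15 and 12.19 on day 25 and 9.41, 10.24 and 10.97 on day 16 (3.53-fold, adjusted p = 0.0125). Plod2, which hydroxylates lysines of collagen for cross-links, had 14.44, 15.33 and 15.17 on day 25 and 13.39, 13.83 and 13.81 on day 16 (2.46-fold, adjusted p = 0.0463). Erp44, a chaperone of the secretory pathway that retains unassembled proteins, was 2.10-fold higher (adjusted p = 0.0451). The Lamb1 call was lost without day 16 replicate 1 or 2 or day 25 replicate 2 or 3, and those of Plod2 and Erp44 without any 1 sample other than day 25 replicate 1 (up to 0.256, 0.227 and 0.24).

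The remaining named rises were smaller. Pvr, a nectin-like adhesion receptor, was 2.76-fold higher (11.88 ± 0.10 on day 25 and 10.41 ± 0.27 on day 16, SD, n = 3 each, adjusted p = 0.0179). None of its 4 other tested probe sets was called. Prr13 was 2.58-fold higher (adjusted p = 0.0102), the sulfatase gene Arsi 2.49-fold (adjusted p = 0.0475) and Ubqln2, which carries proteins to the proteasome, 2.41-fold (adjusted p = 0.0457). Kdm6a, an X-linked demethylase of histone H3, was 2.24-fold higher (adjusted p = 0.0457) and Enc1, an actin-binding protein, 2.20-fold (adjusted p = 0.0475). Neither of the 2 other tested probe sets of Kdm6a was called. All 6 genes had no overlap between the days. The calls of Kdm6a and Enc1 were lost whichever sample was left out, and the other 4 each lost theirs without day 16 replicate 1 or day 25 replicate 2, and some without further samples (up to 0.241).

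Mtm1, which encodes the phosphoinositide phosphatase myotubularin, was called lower. It had 6.02, 7.43 and 8.14 on day 25 and 9.81, 11.29 and 10.38 on day 16, and was at least 7.95-fold lower (adjusted p = 0.00226). A second probe set had 6.18, 4.38 and 4.13 on day 25 and 8.62, 9.97 and 9.03 on day 16 (at least 4.76-fold lower, adjusted p = 0.00226). Both probe sets were called whichever sample was left out.

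Tagln, Pcdh18, Cthrc1 and Myh10 were called lower. Tagln, the actin-binding protein transgelin of smooth muscle and myofibroblasts, had 12.34, 10.69 and 11.33 on day 25 and 14.21, 13.57 and 13.84 on day 16. The days did not overlap, and it was 5.36-fold lower (-2.42, SE 0.46, adjusted p = 0.0202). Pcdh18, a protocadherin, was at 10.56, 8.43 and 7.90 on day 25 and at 11.40, 11.84 and 11.08 on day 16 (5.57-fold lower, adjusted p = 0.024). Cthrc1, a secreted protein with a collagen triple helix repeat, had 13.05, 12.08 and 11.88 on day 25 and 14.54, 14.05 and 13.83 on day 16 (3.49-fold lower, adjusted p = 0.0358). In these 3 genes day 25 replicate 1 lay nearest to day 16. Myh10, the heavy chain of non-muscle myosin IIB, was 3.10-fold lower (14.38 ± 0.38 on day 25 and 16.01 ± 0.21 on day 16, SD, n = 3 each, adjusted p = 0.0211). Without day 25 replicate 1 the differences of Tagln, Pcdh18 and Cthrc1 were -2.87, -3.27 and -2.16. All 4 calls were lost without day 16 replicate 1, day 16 replicate 2 or day 25 replicate 2, and some without further samples (up to 0.132, 0.144, 0.192 and 0.122).

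Tagln was the 1 call among 20 tested smooth muscle genes, where 0.218% of all genes were called lower. The median of the list was -0.67 and stayed between -0.91 and -0.63 with 1 sample left out. Of the 20 genes, 8 lay wholly below and 1 wholly above, where 10.1% of all genes lay wholly below and 9.19% wholly above. Summed signal was 75190 to 135957 on day 25 and 130933 to 202158 on day 16, led by Acta2. Cardiac muscle genes gave 0 calls among 37 and a median of -0.16, and skeletal muscle genes 0 calls among 16.

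Igdcc4, Ptprs, Rspo1 and Kctd15 were also called lower. Igdcc4, an immunoglobulin-domain receptor, had 10.40, 9.61 and 10.52 on day 25 and 12.39, 12.51 and 12.02 on day 16 (4.40-fold lower, adjusted p = 0.0193). None of its 3 other tested probe sets was called. Ptprs, a receptor phosphatase that binds proteoglycans, had 12.37, 10.85 and 11.83 on day 25 and 13.39, 13.31 and 13.75 on day 16 (3.50-fold lower, -1.81, SE 0.31, adjusted p = 0.0082). Neither of its 2 other tested probe sets was called. Rspo1, a secreted enhancer of Wnt signalling, was at least 2.63-fold lower (adjusted p = 0.0475), with all 3 day 25 values under the 20th percentile. In each of these genes no day 25 value reached the lowest of day 16. Kctd15, an inhibitor of neural crest formation in zebrafish, was 2.67-fold lower (adjusted p = 0.0482). The Ptprs call was lost without day 25 replicate 2 (0.0511) and that of Igdcc4 without day 16 replicate 1 or 2 or day 25 replicate 2 (up to 0.12). Those of Rspo1 and Kctd15 were lost without any 1 sample other than day 25 replicate 1 (up to 0.179 and 0.245).

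Rspo1 was the 1 call among 46 tested Wnt genes, where 0.218% of all genes were called lower. The median of the Wnt genes was -0.40, with a range of -0.60 to -0.28 when 1 sample was left out. Of the 46, 14 lay wholly below and 4 wholly above day 16, against 10.1% and 9.19% of all genes. BMP and TGF-beta genes had 0 calls among 42. Fst, which encodes the activin antagonist follistatin, had 12.97, 15.00 and 13.93 on day 25 and 10.83, 10.68 and 11.10 on day 16 (3.10, SE 0.83, adjusted p = 0.0882), and Tgfb3, a TGF-beta ligand, had 9.26, 5.73 and 8.51 on day 25 and 11.98, 10.62 and 10.12 on day 16 (adjusted p = 0.0973). The insulin-like growth factor axis gave 0 calls among 19 and a median of -0.64 (-1.005 without day 25 replicate 1), with 7 wholly below and 0 wholly above. In that list Igfbp3, a binding protein of the growth factors, had 10.66, 9.76 and 10.21 on day 25 and 12.14, 12.50 and 11.61 on day 16 (-1.87, SE 0.49, adjusted p = 0.0833).

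Mest, a paternally expressed imprinted gene of growing mesoderm, fell 4.75-fold. It had 12.07, 10.22 and 10.40 on day 25 and 13.08, 13.26 and 13.09 on day 16 (-2.25, SE 0.49, adjusted p = 0.0387), so the day 16 samples lay close together and day 25 replicate 1 lay nearest to them. The call was lost without any 1 sample other than day 25 replicate 1, without which the difference was -2.84 (highest adjusted p 0.222). Imprinted genes are expressed from 1 parental copy, and many of them regulate growth of the embryo. Of 24 tested, 1 fell, 0 rose and 23 did not pass, where 0.218% of all genes were called lower. Wholly below lay 8 and wholly above 0, against 10.1% and 9.19% of all genes. The median was -0.69, and it lay between -0.83 and -0.54 with 1 sample left out. Meg3 and Ndn are examples of imprinted genes with a probe set called lower while a brighter one, which stands for the gene in these counts, was not. They were chosen after their values were seen, and such cases were not counted. The called probe set of Meg3, a maternally expressed long RNA, had 11.96, 10.55 and 11.82 on day 25 and 13.86, 13.69 and 14.35 on day 16 (5.77-fold lower, adjusted p = 0.0202), and the brighter probe set differed by -1.40 (adjusted p = 0.0797). That of Ndn, which encodes necdin, had 13.28, 12.45 and 12.48 on day 25 and 13.79, 14.15 and 13.81 on day 16 (2.27-fold lower, adjusted p = 0.0301), with -1.13 for the brighter probe set (adjusted p = 0.102). The Meg3 call was lost without any 1 of the day 16 samples or day 25 replicate 2 (up to 0.136), and that of Ndn without any 1 sample other than day 25 replicate 1 (up to 0.178).

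Parp1, Cdca7, Ptbp1, Sap30 and Hmgn3, which encode nuclear proteins, were called lower, and no list of such genes was drawn up. Parp1, the poly(ADP-ribose) polymerase that senses DNA breaks, had 9.76, 9.97 and 9.68 on day 25 and 11.37, 11.51 and 11.26 on day 16. Samples of a day differed by little, and Parp1 was 2.99-fold lower (-1.58, SE 0.24, adjusted p = 0.00298, and at most 0.0267 with any 1 sample left out). Of its 3 other tested probe sets 1 was called, also lower (2.30-fold, adjusted p = 0.0179). Cdca7, a factor of chromatin remodelling in dividing cells, was 3.62-fold lower (adjusted p = 0.0179), the splicing repressor gene Ptbp1 3.50-fold (adjusted p = 0.0387), Sap30, a subunit of a histone deacetylase complex, 3.32-fold (adjusted p = 0.0194) and the nucleosome-binding protein gene Hmgn3 2.69-fold (adjusted p = 0.0374). None of these 4 overlapped between the days, but each call was lost without day 16 replicate 2 or day 25 replicate 2 and some without further samples (up to 0.118, 0.144, 0.0991 and 0.222). Neither of the 2 other tested probe sets of Ptbp1 was called. The 69 genes of DNA replication and mitosis gave 0 calls and a median of 0.07. In that list 1 lay wholly above and 2 wholly below, against 9.19% and 10.1% of all genes. Bub1b, a kinase of the spindle checkpoint, had the smallest p there (-1.09, SE 0.27, adjusted p = 0.066).

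**Figure D3:**
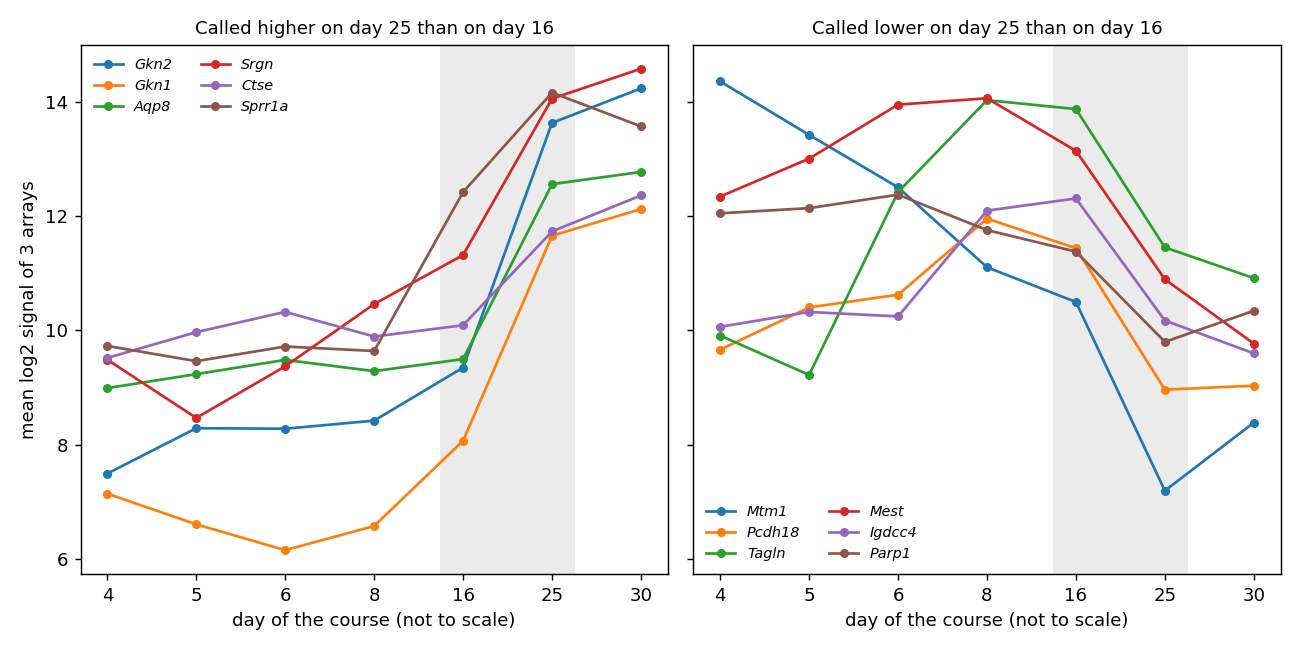
Mean log2 signal of 3 arrays on each of the 7 days for 6 genes called higher (left) and 6 called lower (right) on day 25 than on day 16, with the compared days shaded. Gkn2 averaged 13.63 on day 25 and 9.35 on day 16, and Mest 10.90 on day 25 and 13.14 on day 16.

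The rest of the course gives the levels around this step. Gkn2 averaged 8.42 on day 8, 9.35 on day 16, 13.63 on day 25 and 14.24 on day 30, so most of its climb lay in the interval compared here. Sprr1a averaged 9.64 on day 8, 12.42 on day 16, 14.16 on day 25 and 13.57 on day 30, with a part of its climb before day 16. Tagln averaged 9.91 on day 4 and 14.03 on day 8, and then 13.88 on day 16, 11.45 on day 25 and 10.92 on day 30. Mtm1 averaged 14.36 on day 4, 11.11 on day 8, 10.50 on day 16, 7.19 on day 25 and 8.39 on day 30, and thus was already falling before day 16. On day 30 all 3 arrays lay above all 3 of day 16 for 26 of the 26 genes called higher, and below for 34 of the 34 called lower. That comparison uses the same day 16 samples, so it does not add independent evidence.

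The label of the cultures was checked against osteoblast markers. Sparc (osteonectin), a collagen- and calcium-binding protein of bone and of many other matrices, had 15.81, 16.94 and 16.50 on day 25 and 15.53, 15.01 and 15.79 on day 16 (0.97, SE 0.41, adjusted p = 0.285). Every day 25 value was above every day 16 value, though 15.81 was only just above 15.79, and the difference did not pass the test. In a second 430A probe set of Sparc the days overlapped, with 14.66 on day 25 replicate 1 and 14.71 on day 16 replicate 3 (0.62, adjusted p = 0.491). A 430B probe set did not overlap (0.55, adjusted p = 0.559). Col1a2, a chain of type I collagen, was at 16.85, 14.68 and 15.26 on day 25 and at 17.00, 16.39 and 16.35 on day 16 by its brightest probe set (adjusted p = 0.549), with day 25 replicate 1 at the level of day 16. Another 430A probe set of Col1a2 had 14.53, 12.09 and 12.42 on day 25 and 15.42, 14.94 and 14.65 on day 16 (-1.99, adjusted p = 0.164). A 430B probe set of Col1a2 had 9.70, 6.75 and 7.36 on day 25 and 10.82, 10.58 and 10.49 on day 16 (-2.70, adjusted p = 0.409). The days did not overlap in either, and neither passed the test. The day 25 values of 6.75 and 7.36 were under the low-signal limit of 430B (7.67). Col1a1, the other chain, averaged 14.70 ± 0.80 on day 25 and 15.33 ± 0.54 on day 16 by its brightest probe set (SD, n = 3 each, adjusted p = 0.746). A dimmer Col1a1 probe set differed by -1.49, without overlap (adjusted p = 0.518). Sp7, the osteoblast transcription factor osterix, averaged 9.74 ± 0.54 on day 25 and 10.10 ± 0.42 on day 16 (adjusted p = 0.726), and Alpl, the alkaline phosphatase that frees phosphate for mineral, 8.50 ± 0.60 on day 25 and 8.65 ± 0.30 on day 16 (SD, n = 3 each, adjusted p = 0.938). Ibsp, which encodes bone sialoprotein, and the osteocyte genes Phex and Dmp1 were too dim to be tested. Of 32 osteoblast genes listed, 25 were on the chips and 15 tested, with 0 called in either direction. Their median was -0.13 and changed sign with the sample left out. Wholly above lay 2 and wholly below 3, against 9.19% and 10.1% of all genes. The largest difference in size was that of Cdh11, the cadherin of osteoblasts and mesenchyme (-2.49, SE 0.60, adjusted p = 0.0626). Cdh11 had 10.32, 8.70 and 8.45 on day 25 and 11.99, 12.09 and 10.87 on day 16. With a sample left out, the adjusted p of Cdh11 ran from 0.0194, without day 25 replicate 1, up to 0.253. Pdpn, the podoplanin of young osteocytes and of several epithelia, had 13.04, 13.12 and 13.10 on day 25 and 11.72, 11.69 and 12.96 on day 16, where replicate 3 was close to day 25 (adjusted p = 0.132). Osteocalcin, osteopontin and Cbfa1, which the labels mention as RT-PCR markers, are not analysed here. Vitamin D response genes gave 0 calls among 12 and a median of 0.04.

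Matrix genes were grouped in 3 lists. Small leucine-rich proteoglycans and other matrix proteins, which space and coat collagen fibres, had the lowest median of the 40 lists at -1.22 (-1.59 to -0.79 with 1 sample left out, -0.79 without day 25 replicate 2). Of 29 tested, 9 lay wholly below, 1 wholly above and 0 were called, where 10.1% of all genes lay wholly below and 9.19% wholly above. Lum, which encodes the proteoglycan lumican, had 12.35, 10.24 and 11.64 on day 25 and 13.84, 13.22 and 12.91 on day 16. The difference was -1.91 (SE 0.54, adjusted p = 0.106). With a sample left out, the adjusted p of Lum ran from 0.0428, without day 25 replicate 1, up to 0.418. Mfap2, a protein of elastic microfibrils, had 11.02, 7.56 and 9.34 on day 25 and 12.74, 12.17 and 11.70 on day 16. The difference was -2.90 (SE 0.78, adjusted p = 0.0882). With a sample left out, the adjusted p of Mfap2 ran from 0.0225, without day 25 replicate 1, up to 0.378. Fibrillar collagens and their processing enzymes had a median of -0.60 (-0.26 without day 16 replicate 1 and -0.30 without day 25 replicate 2), with 5 wholly above and 6 wholly below among 34, and Plod2 as the 1 call went the other way. Basement membrane genes had a median of 0.06 among 25, and Lamb1 was their 1 call. Over all genes 0.167% were called higher.

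**Figure D4:**
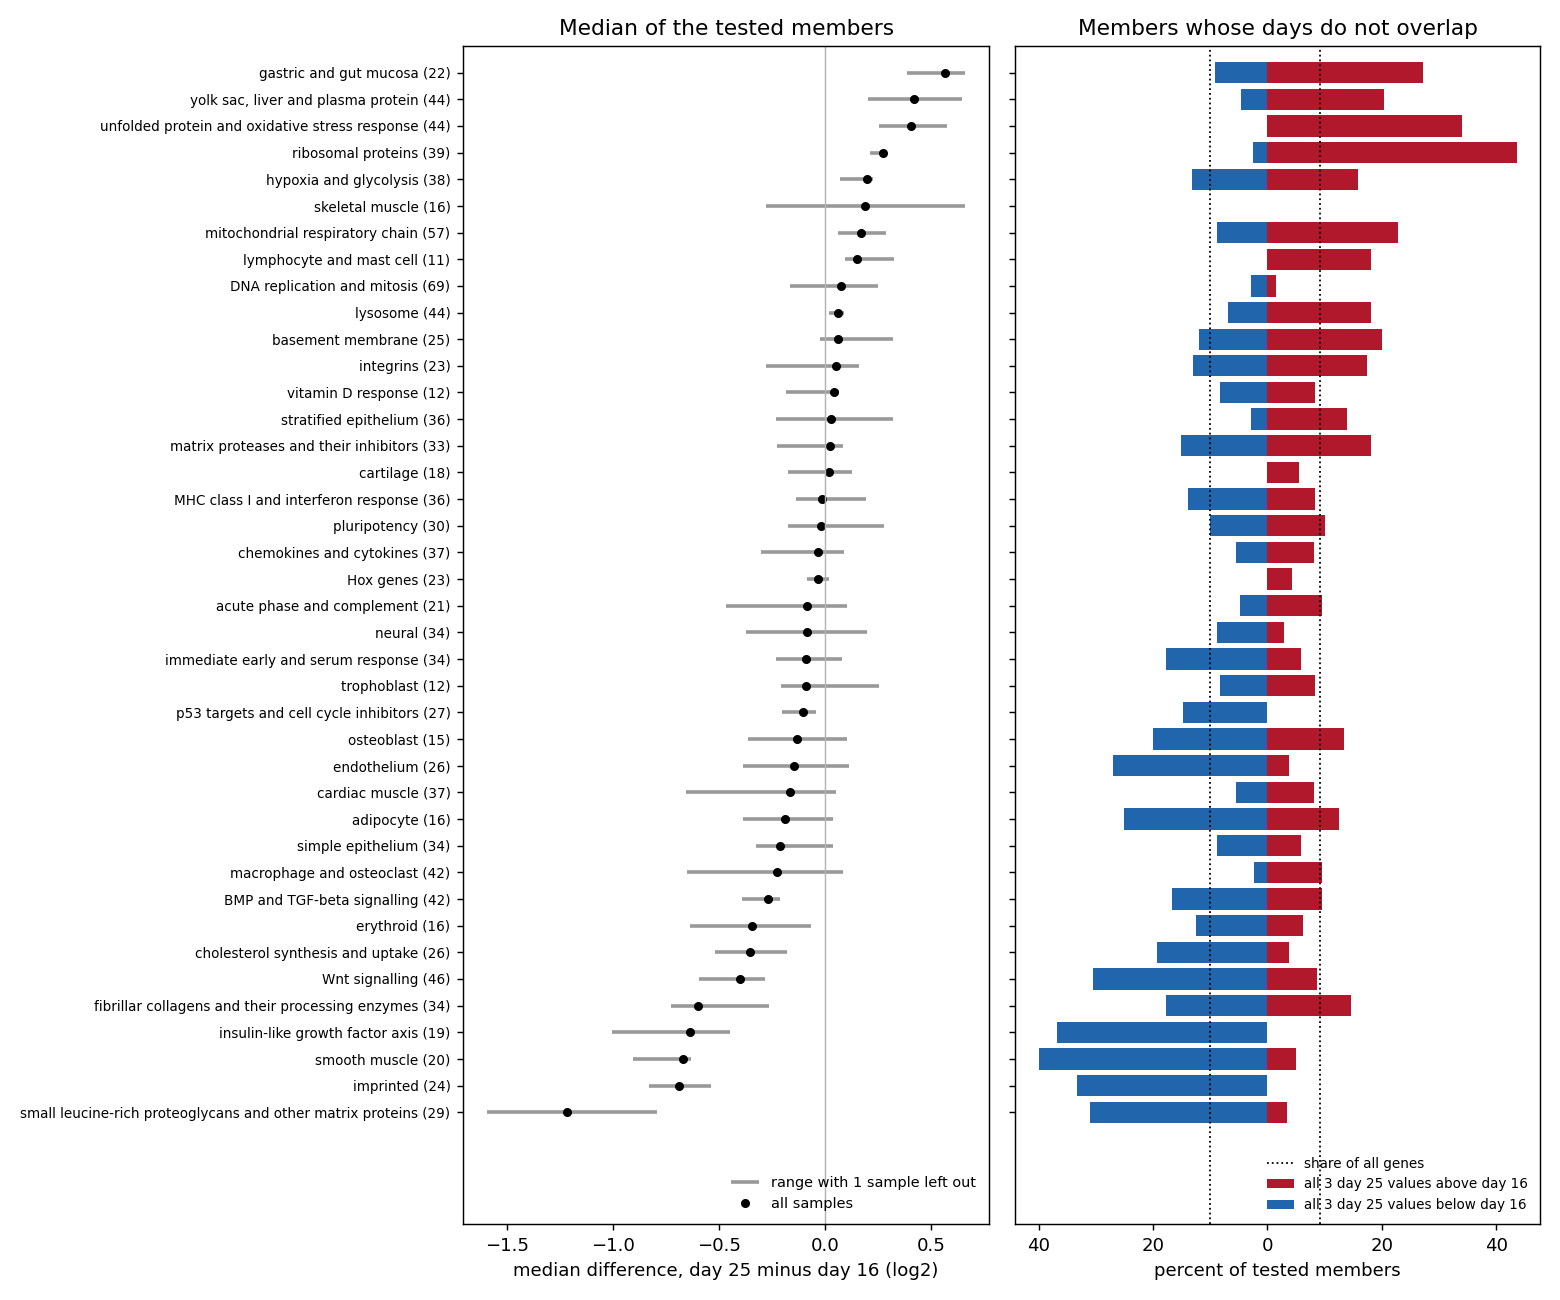
Left, the median difference (day 25 minus day 16, log2) of the tested members of each of 40 gene lists, with their number in brackets and the range when 1 sample is left out. Right, the percent of members whose 3 day 25 values lie wholly above (red) or wholly below (blue) day 16, with the share of all genes (9.19% above and 10.1% below) dotted. Gastric and gut mucosa has the highest median at 0.57 and the proteoglycan list the lowest at -1.22. With 1 sample left out the median changed sign in 22 of the 40 lists.

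Genes of the protein-folding response had a positive median with 0 calls. Over all genes 9.19% lay wholly above day 16 and 10.1% wholly below. In the unfolded protein and oxidative stress list 15 of 44 genes lay wholly above day 16 and 0 wholly below, with a median of 0.41 (0.26 to 0.58 with 1 sample left out, 0.26 without day 25 replicate 2). Sdf2l1, an endoplasmic reticulum chaperone partner, had 10.89, 11.17 and 10.92 on day 25 and 10.12, 10.16 and 10.06 on day 16 (0.88, SE 0.21, adjusted p = 0.0518). Calr, the calcium-binding chaperone calreticulin, had 15.14, 15.74 and 15.24 on day 25 and 14.50, 14.50 and 14.82 on day 16 (0.77, adjusted p = 0.104). Ribosomal protein genes had a median of 0.28 with 17 of 39 wholly above, 1 wholly below and 0 called, but under quantile normalization the median was -0.05, and their probe sets can share sequence with near-identical copies. Respiratory chain genes had a median of 0.17 (0.06 without day 25 replicate 2 and 0.29 without day 25 replicate 1) with 13 of 57 wholly above, 5 wholly below and 0 called. All of these shifts accompanied the higher Gapdh and actin 3′/5′ ratios of day 25, and the part of RNA shortening in them was not tested. With the Gapdh ratio in the model the median was 0.40 for the protein-folding list, 0.27 for ribosomal proteins, -0.99 for the proteoglycan list, -0.65 for smooth muscle and 0.59 for gastric genes. Others moved further. The median was 0.09 for the respiratory chain, -0.30 for fibrillar collagens, -0.43 for imprinted genes, 0.45 for hypoxia and glycolysis and 0.43 for stratified epithelium. It changed sign in 11 of the 40 lists, among them BMP and TGF-beta genes (0.19, against -0.27 without the ratio), simple epithelium (0.24, against -0.21) and vitamin D response (-0.42, against 0.04). Another 13 lists kept their sign with a median within 1.5 times, 3 were smaller and 13 larger by more than that.

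Other cell types gave no call. Over all genes 9.19% lay wholly above day 16 and 10.1% wholly below. The counts of pluripotency genes, and of macrophage and osteoclast genes wholly above, were near these shares. Endothelial genes had a median of -0.15 with 7 of 26 wholly below and 1 wholly above. Their summed signal was 39002 to 51984 on day 25 and 26398 to 36812 on day 16. Sox17, also in the yolk sac and liver list, was the brightest and is part of these sums, so they do not show a rise of the other members. Macrophage and osteoclast genes had 4 of 42 wholly above and 1 wholly below, and adipocyte genes 2 of 16 wholly above and 4 wholly below. Lpl, a lipase of fat and muscle, had 13.87, 11.82 and 14.14 on day 25 and 14.90, 14.48 and 14.95 on day 16 (adjusted p = 0.153). Among erythroid genes, the embryonic globin Hbb-y had 4.43, 4.88 and 4.81 on day 25, all under the 20th percentile, and 6.89, 11.00 and 9.53 on day 16 (adjusted p = 0.248). Pluripotency genes had a median of -0.02 that changed sign with the sample left out, with 3 of 30 wholly above, 3 wholly below and 0 called. The lowest difference there was -2.54 for Pou5f1, a core factor of pluripotency chosen here after its value was seen (adjusted p = 0.207). The 2 with the smallest p were both higher on day 25. Sall4, which yolk sac endoderm also expresses, had 13.06, 13.90 and 13.67 on day 25 and 10.26, 12.08 and 13.01 on day 16 (1.76, SE 0.45, adjusted p = 0.0748). Klf4, a factor of stem cells and of epithelia, had 13.38, 14.05 and 13.73 on day 25 and 11.80, 12.84 and 12.92 on day 16 (1.20, SE 0.28, adjusted p = 0.053). Cholesterol synthesis genes had a median of -0.35 (-0.18 without day 25 replicate 2), with Dhcr7, the last enzyme of the pathway, at 10.06, 9.63 and 10.08 on day 25 and 11.16, 11.17 and 11.02 on day 16 (-1.19, SE 0.28, adjusted p = 0.0583). Hypoxia and glycolysis genes had a median of 0.20 (0.07 without day 16 replicate 3), with 6 of 38 wholly above, 5 wholly below and 0 called. Pgk1, a glycolytic kinase, had 17.55, 17.35 and 16.81 on day 25 and 16.64, 16.23 and 16.20 on day 16 (0.88, SE 0.21, adjusted p = 0.0544). Pfkl, the liver form of phosphofructokinase, differed the other way, with 13.75, 13.97 and 13.73 on day 25 and 14.79, 14.38 and 14.17 on day 16 (-0.63, SE 0.20, adjusted p = 0.156). The 13 lists not described above, such as cartilage, neural, trophoblast, integrin and Hox genes, also gave 0 calls and had medians between -0.10 and 0.15.

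A few further called probe sets were chosen after their values were seen. Sprr2f, a relative of Sprr1a in the squamous envelope, had 12.46, 12.60 and 11.61 on day 25 and 9.61, 10.72 and 8.36 on day 16 (6.33-fold higher, adjusted p = 0.0296). Procr, the receptor of activated protein C, had 11.57, 12.47 and 12.16 on day 25 and 9.91, 10.24 and 9.82 on day 16 (4.23-fold higher, adjusted p = 0.00298), and was called whichever sample was left out. Fabp3, a fatty acid carrier of heart, was 5.76-fold higher (adjusted p = 0.0469), but its days overlapped, with day 25 replicate 1 at 11.21 and day 16 replicate 3 at 11.24. Adamts9, a secreted matrix protease, was 6.51-fold higher (adjusted p = 0.0438). Tgfb2, a growth factor of mesenchyme, had 5.49, 4.75 and 5.29 on day 25, all under the 20th percentile, and 9.37, 8.997 and 8.96 on day 16 (at least 4.44-fold lower, adjusted p = 0.0232). Slc38a4, an amino acid transporter, was 6.22-fold lower (adjusted p = 0.00267) and was called whichever sample was left out. Fbln1, a matrix protein of basement membranes, was 3.57-fold lower (adjusted p = 0.0257), and Dnmt3a, a DNA methyltransferase, at least 3.57-fold lower (adjusted p = 0.0234). The brightest probe set of 5 of these genes did not pass, with differences of 0.77 for Adamts9, -0.65 for Tgfb2, -1.12 for Slc38a4, -1.29 for Fbln1 and -1.05 for Dnmt3a (adjusted p = 0.588, 0.728, 0.142, 0.171 and 0.174). The calls for Sprr2f, Fabp3, Adamts9, Tgfb2, Fbln1 and Dnmt3a were each lost in at least 3 of the 6 fits that leave out a sample.

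**Figure D5:**
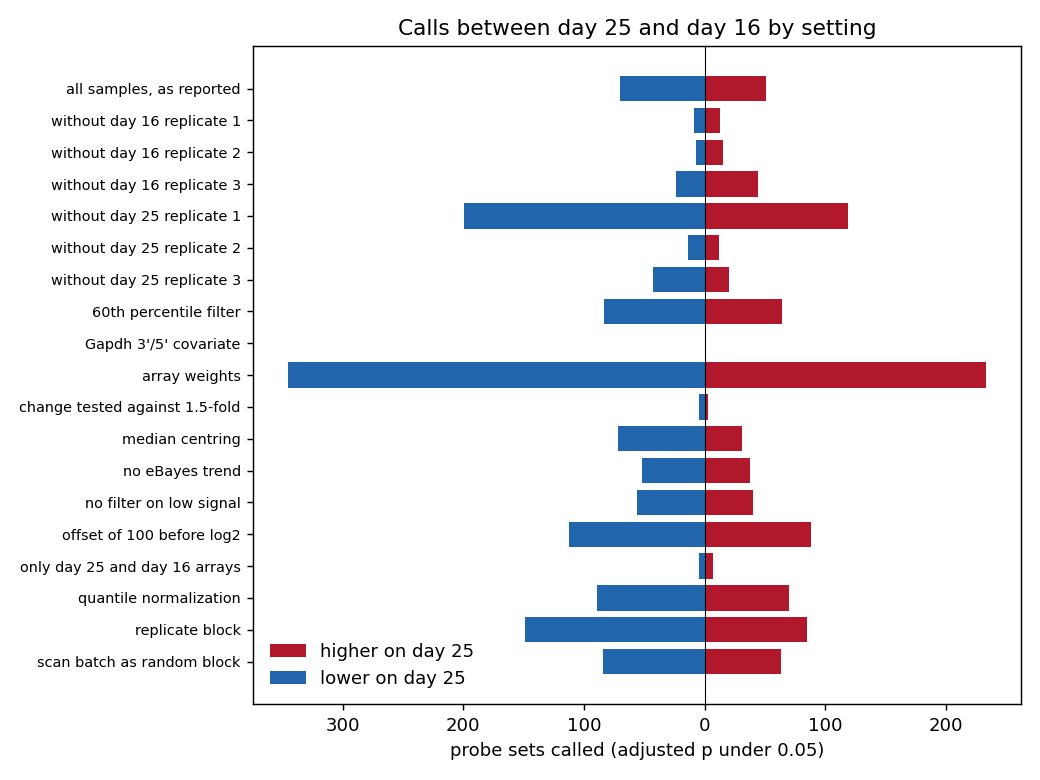
Probe sets called higher (red, right) and lower (blue, left) on day 25 than on day 16, for all samples and under each alternative. With all samples 51 were higher and 70 lower, and without day 25 replicate 1 these were 119 and 199.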

How the data were processed

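Per the submitters' processing notes the deposited signal is from MAS5 (no version given), the summary of a probe set's perfect and mismatch probes. The authors had scaled each array to a common trimmed mean, checked here on every array (1500), with no detection calls in the tables used. Gene symbols came from the platform annotation, updated by Entrez identifier through GRCm38.p6, which matched 20364 probe sets on 430A and 14499 on 430B. Probe sets with several symbols were not named.

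Signal was taken to log2 with no offset. Control probe sets were left out, and testing required a signal over the 40th percentile of its own array in 3 or more of the 21 arrays. Separate limma models (version 3.58.1, R 4.3.3) for the chips held day as the factor, used all 21 arrays, left 14 residual degrees of freedom and ended in eBayes with a trend. The contrast was day 25 minus day 16, two-sided, with Benjamini-Hochberg adjustment per chip and a threshold of 0.05. Arrays have no read depth, and their number limits the precision. The procedure was tested on simulated data. Each gene was represented by its brightest tested probe set on 430A, or on 430B for genes not tested on 430A. Named were the 14 largest rises and 14 largest falls past the threshold, without overlap and above the median level. From each of 40 lists up to 4 called members were named, or the 2 with the smallest p where none passed. Further osteoblast markers were shown, without the RT-PCR markers osteocalcin, osteopontin and Cbfa1. Comparison, members and lists were chosen with earlier results of these data known. RefSeq promoter windows matched 63 of the 93 named genes. Replicate numbers were not taken to pair samples, and whether they mark shared cultures is not stated. Deviations of same-numbered samples correlated at 0.19, -0.02 and 0.13 on 430A and at 0.065, -0.017 and 0.023 on 430B. Those of samples with unlike numbers ran from -0.22 to 0.13 on 430A and from -0.053 to 0.033 on 430B. The scan notes give replicates 1 and 2 the same preparation numbers on both days. They give day 16 replicate 3 another preparation number than day 25 replicate 3.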

Additional observations from a re-analysis of the deposited data

How the results depend on the processing

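Limits are few samples, Gapdh and actin 3′/5′ ratios that differ between the days, and scan batches that follow day. Of the 121 calls, 51 higher and 70 lower, these counts changed by more than 1.5 times under several alternatives. With the Gapdh 3′/5′ ratio as a covariate 1 remained, 1 higher and 0 lower. Testing against a change of 1.5-fold gave 8 (3 and 5), and the fit of only the 6 arrays of both days 12 (7 and 5), with fewer residual degrees of freedom. Array weights gave 578 (233 and 345) and an offset of 100 before log2 gave 200 (88 and 112). Median centring gave 103, of which 31 higher and 72 lower. With 1 sample left out the count ran from 22 to 318, with 12 to 119 higher and 7 to 199 lower. The fit with the replicate number as a block (replicate block) gave 234 (85 and 149), all 121 among them, although it is not stated that the numbers pair the samples. The causes were not tested. Within 1.5 times were no filter (96), the 60th percentile filter (147), no trend (90), quantile normalization (159) and scan batch as a random block (147). Of the 93 named genes 2 changed direction, both uncalled: Rps2 was at -0.0295 under quantile normalization, against 0.62 without it (log2, day 25 minus day 16). Hoxb6, 0.61 with all samples, ran from -0.29 without day 16 replicate 3 to 1.11 without day 16 replicate 1; the causes were not tested. Signals under the 20th percentile limit the folds given as at least.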
